A study of Mus musculus with 23 samples.

Results

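The interleukin-1 (IL-1) family was followed in mouse colon over the first 6 days of exposure to DSS (dextran sulfate sodium), which damages the epithelial lining of the colon when mice drink it. The family here comprises 10 genes: the agonist ligands Il1a, Il1b, Il18 and Il33, the antagonist Il1rn, the receptor genes Il1r1, Il1rap and Il1rl1, the decoy receptor Il1r2, and Casp1, which encodes the protease that activates some of the ligands. They were found by gene symbol in the platform annotation. Of the 10 genes, 9 had a probe set of that symbol alone, out of 18193 genes with such a probe set. They had 16 of the 45101 probe sets on the array, and 8 of the genes entered the test across genes. Il1rl1, the receptor gene of IL-33, had no match, so its signal was not analysed here.

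Colon RNA came from C57BL/6J mice, an inbred strain, aged 12 to 14 weeks. Day 0 was 5 mice without DSS, and days 2, 4 and 6 were 6 mice each that drank 3% DSS for that many days. Separate cohorts gave each day, so 23 animals gave 23 arrays and no animal was followed over time. No genotype other than the strain is given, and neither the sex nor the piece of colon taken is given in the sources used here.

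IL-1α and IL-1β bind the receptor encoded by Il1r1, which pairs with the accessory chain encoded by Il1rap and signals through MyD88 and IRAK kinases to NF-κB and MAP kinases. The antagonist encoded by Il1rn occupies the same receptor without signalling, and the decoy receptor encoded by Il1r2 binds ligand but lacks the signalling domain. IL-1β and IL-18 are made as precursors that caspase-1 cleaves inside inflammasomes, whereas IL-1α and IL-33 lie in the nucleus of many cells and are released on damage. In the colon, IL-18 is made by epithelial cells, and IL-1β mainly by myeloid cells.

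The sequence just before the start of transcription is shown for the 4 genes of the family whose day 6 signals differed most from untreated colon, Il1b, Il33, Il1r2 and Il1a, so that their starts can be set side by side. They are from RefSeq on build GRCm38.p6, read 5′ to 3′ on the strand of the gene, 250 bases up to the start site. Il1a lies at chr2:129309973-129310222 and Il1b at chr2:129371140-129371389, both on the minus strand. Il33 lies at chr19:29945540-29945789, the second of its 2 listed starts, and Il1r2 at chr1:40085843-40086092, both on the plus strand. Capitals mark matches to the motifs searched.
Il1a: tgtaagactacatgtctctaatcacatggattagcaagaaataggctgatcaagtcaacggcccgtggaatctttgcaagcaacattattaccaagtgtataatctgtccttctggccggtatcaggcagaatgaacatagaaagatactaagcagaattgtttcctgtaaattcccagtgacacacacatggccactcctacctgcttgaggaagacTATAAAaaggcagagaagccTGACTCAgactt
Il1b: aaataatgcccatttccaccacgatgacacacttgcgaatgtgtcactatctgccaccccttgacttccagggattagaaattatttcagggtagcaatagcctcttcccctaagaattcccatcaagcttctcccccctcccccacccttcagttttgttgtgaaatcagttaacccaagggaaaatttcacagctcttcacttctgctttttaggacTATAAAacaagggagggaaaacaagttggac
Il33: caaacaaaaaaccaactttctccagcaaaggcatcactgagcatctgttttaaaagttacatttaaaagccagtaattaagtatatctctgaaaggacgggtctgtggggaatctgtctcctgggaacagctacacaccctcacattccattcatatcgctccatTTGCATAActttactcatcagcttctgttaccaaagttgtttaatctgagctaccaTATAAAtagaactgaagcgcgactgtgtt
Il1r2: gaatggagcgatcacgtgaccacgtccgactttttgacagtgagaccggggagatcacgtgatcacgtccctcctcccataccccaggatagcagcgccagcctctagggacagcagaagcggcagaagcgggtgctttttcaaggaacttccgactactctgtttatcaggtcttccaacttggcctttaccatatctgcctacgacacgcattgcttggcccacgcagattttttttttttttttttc

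Motifs were searched on both strands of the 15 windows that RefSeq lists for the 10 genes, 300 bases each with 50 of them after the start. They were the TATA element TATAAA, the AP-1 site TGANTCA, which reads alike on both strands, the C/EBP site TTGCNNAA and the κB consensus. Among 32851 such windows of all genes, 13.616% held TATAAA, 7.808% the AP-1 site, 10.797% the C/EBP site and 4.505% the κB consensus. TATAAA began 32 bases before the start in Il1a, 31 in Il1b and 29 in the second start of Il33. Il1a also held the AP-1 letters 12 bases before its start, and Il33 the C/EBP letters 85 bases before it. The Il1r2 window held none of the motifs. Among the other windows, an AP-1 match stood 141 bases before the first start of Il1rn, a C/EBP match 133 before the first start of Il1r1 and a κB match 232 before its second, on the minus strand. TATAAA also stood 203 bases before the first start of Il33 and, on the minus strand, 175 before the start of Il18 and 14 after the third start of Il1rn. The C/EBP letters also stood 34 bases before the first start of Il1rl1. The windows of Il1rap and Casp1 held no match. The signals do not tell which start was used. These are matches of letters and show no binding, and the motifs were chosen after the signals were seen.

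At day 6 the genes of IL-1β, IL-33, the decoy receptor and the signalling receptor were higher than in untreated colon, without overlap between the arrays of the 2 days. Il1b rose 12.7-fold, Il33 6.93-fold, Il1r2 4.63-fold and Il1r1 1.97-fold. Il1rn rose 1.33-fold and Casp1 fell to 0.877 of day 0, both with overlapping arrays. Il18 and Il1rap did not pass. Signals are the authors' MAS5 intensities, fold changes are of log2(signal + 16), which understates the change of dim genes, and genes with an adjusted p no higher than 0.05 are said to have passed (limma, adjusted over 12463 genes). Colon is a mixed tissue, and in bulk RNA more or fewer cells of a type cannot be told apart from more or less RNA per cell.

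**Figure D1:**
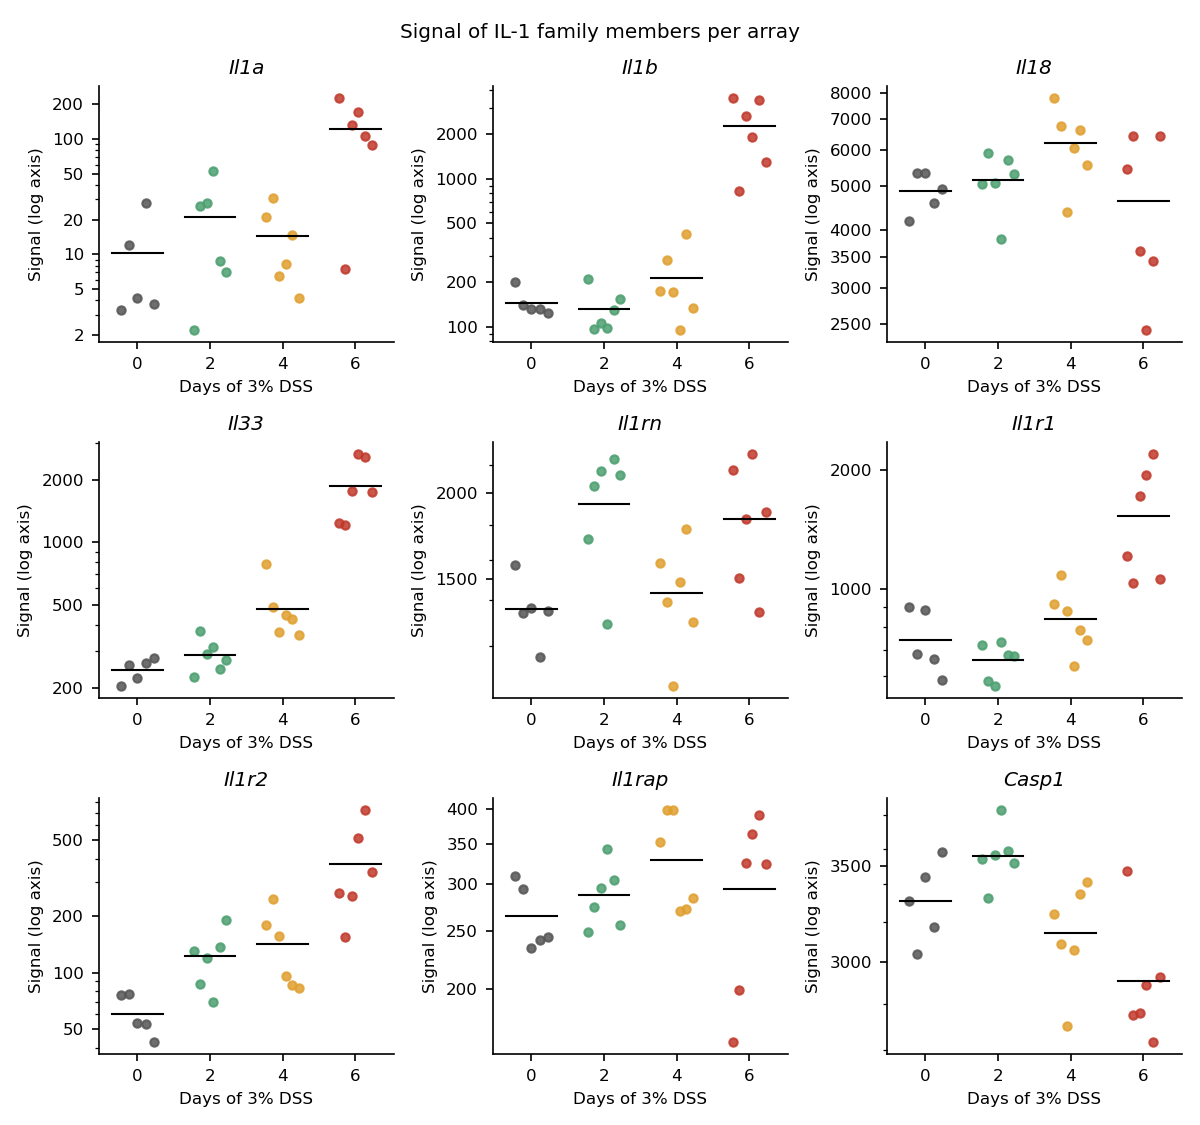
Signal of 9 IL-1 family genes on each of the 23 arrays (log axis) against days of DSS, 1 point per animal, with a line at the mean of each day. Il1b, Il33, Il1r1 and Il1r2 lie higher on all 6 arrays of day 6 than on any of the 5 of day 0, and Il1a on 5 of the 6.

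Il1b encodes IL-1β, the secreted agonist. Its signal on the 5 untreated arrays was 199, 140.1, 131, 133 and 125 (mean 146 ± 30.6, SD, n = 5). At day 2 the 6 arrays ranged from 97.2 to 211 (median 118), and at day 4 from 94.5 to 420.3 (median 174). At day 6 they ranged from 831 to 3529 with a median of 2280.2 (mean 2271 ± 1113, SD, n = 6). Days 0, 2 and 4 overlapped throughout, and every day 6 array lay above all earlier ones. The log2 change from day 0 to day 6 was 3.67 ± 0.33 (SE, limma adjusted p = 4.38e-08), the 21st largest increase of the 12463 genes. At day 2 it was -0.15 (adjusted p = 0.898) and at day 4 0.37 (adjusted p = 0.477), so the order of the first 3 days lies within their spread. From day 4 to day 6 the change was 3.29 ± 0.32 (adjusted p = 1.32e-06), the 8th largest increase of that comparison.

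Il33 encodes IL-33, a nuclear cytokine of stromal, endothelial and epithelial cells. It was measured at 203, 256, 221, 263 and 279 without DSS (mean 244 ± 31.5, SD, n = 5). It ranged from 225 to 372 at day 2 (median 281), from 357 to 783 at day 4 (median 436) and from 1203 to 2664 at day 6 (median 1753). Every array of day 4 lay above every array of day 0, and every array of day 6 above every array of day 4. Il33 passed at day 4, where Il1b did not, with a log2 change of 0.88 ± 0.20 (limma adjusted p = 0.00465). That call was kept under 10 of the 12 alternatives described below. At day 6 the change of Il33 was 2.79 ± 0.20 (adjusted p = 1.09e-09). Between days 2 and 4 it rose by 0.68 (adjusted p = 0.0245) and between days 4 and 6 by 1.91 (adjusted p = 1.33e-06). At day 2 its change of 0.21 did not pass (adjusted p = 0.712). Whether the rise of Il33 at day 4 differed from that of Il1b was not tested.

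Il1a encodes IL-1α, the agonist that is active without cleavage. Its probe set was above the median of its own array on 3 arrays, all of day 6, so it did not enter the test across genes. Without DSS its signal was 3.3, 12.2, 4.21, 27.8 and 3.7, and it reached at most 53.3 at day 2 and 31.1 at day 4. At day 6 it was 228, 132, 172, 106 and 88.2 on 5 arrays and 7.42 on day 6 mouse 3, the lowest array of the day for Il1b, Il33, Il1r1 and Il1r2 as well. With no filter on dim probe sets Il1a was higher at day 6 (limma adjusted p = 0.000811) and did not pass at day 2 or 4 (adjusted p = 0.805 and 0.823). Since all day 0, 2 and 4 signals lay below the array medians, the size of its change depends on the pseudocount and is not given.

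Il18, the agonist made by colon epithelium, was abundant from the start. Its 5 untreated arrays ranged from 4204 to 5354 (median 4930.4), and days 2, 4 and 6 had medians of 5197, 6348 and 4532. The SD was 497 without DSS and 727, 1165 and 1709 at days 2, 4 and 6, and the day 6 arrays ran from 2418 to 6446. All comparisons overlapped. Il18 did not pass against day 0, with log2 changes of 0.07 at day 2, 0.33 at day 4 (limma adjusted p = 0.264) and -0.16 at day 6 (adjusted p = 0.565). From day 4 to day 6 the change was -0.49 ± 0.19 (adjusted p = 0.0604).

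Il1rn, which encodes the IL-1 receptor antagonist, had its higher means at days 2 and 6. Its brightest probe set read 1576, 1340.1, 1364, 1159 and 1349.5 without DSS (mean 1358 ± 148, SD, n = 5). On 5 of 6 day 2 arrays it lay between 1717 and 2244, above all untreated arrays, and on day 2 mouse 8 at 1294. The day 4 arrays returned to 1049.5 to 1772 and the day 6 arrays lay between 1344 and 2283. The log2 change was 0.49 ± 0.15 at day 2, which did not pass over all genes (limma adjusted p = 0.144), 0.06 at day 4 (adjusted p = 0.806) and 0.41 ± 0.15 at day 6 (adjusted p = 0.0348). Between days 2 and 4 it fell by 0.42 (adjusted p = 0.0486).

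Il1rn has 3 probe sets, and they did not give the same calls. When each probe set was tested on its own, the other 2 changed by 0.25 (limma adjusted p = 0.142) and 0.34 (adjusted p = 0.136) at day 6, so the day 6 call rests on the brightest. Their changes at day 2 were 0.41 (adjusted p = 0.157) and 0.44 (adjusted p = 0.259). From day 2 to day 4 one of them fell by 0.61 (adjusted p = 0.00304) and the other changed by -0.22 (adjusted p = 0.384). The day 6 call of Il1rn was also lost when its probe sets were averaged (0.33, adjusted p = 0.0585) and with each array centred on its median (0.33, adjusted p = 0.122). It was kept in 15 of 23 runs that left out 1 array, with the highest adjusted p, 0.0921, without day 0 mouse 4.

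Il1r1 encodes the signalling receptor of IL-1α and IL-1β. Without DSS it read 899.8, 681, 882, 664 and 588 (mean 743 ± 140, SD, n = 5), with medians of 676 at day 2, 832 at day 4 and 1463 at day 6. The day 6 arrays lay between 1031 and 2195, above all arrays of days 0 and 2. Its log2 change was 0.98 ± 0.17 at day 6 (limma adjusted p = 0.000143) and 0.81 ± 0.17 from day 4 to day 6 (adjusted p = 0.00118). At days 2 and 4 the changes of -0.16 (adjusted p = 0.757) and 0.17 (adjusted p = 0.532) did not pass. The other probe set of Il1r1 had signals of at most 24.6 on any array and was above the array median on none.

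Il1r2 encodes the decoy receptor. It was dim in untreated colon, at 75.9, 76.7, 53.8, 53.2 and 42.7, and below the array median on each of those 5 arrays. The day 2 arrays ranged from 70.2 to 190 with a median of 125, the day 4 arrays from 82.6 to 246 with a median of 126, and the day 6 arrays from 154 to 727 with a median of 301. Day 2 overlapped with day 0 through a single array, day 2 mouse 8, and days 4 and 6 lay wholly above day 0. The log2 change was 0.82 ± 0.32 at day 2 (limma adjusted p = 0.251), 0.96 ± 0.32 at day 4 (adjusted p = 0.0384) and 2.21 ± 0.32 at day 6 (adjusted p = 1.25e-05). From day 4 to day 6 it rose by 1.25 (adjusted p = 0.00416), with overlap. The day 4 call was kept in 17 of 23 runs that left out 1 array (highest adjusted p = 0.0999, without day 4 mouse 3). It was lost with a pseudocount of 64 (0.67, adjusted p = 0.0714) and with each array centred on its median (adjusted p = 0.051).

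Il1rap encodes the accessory chain shared by the receptors of IL-1 and IL-33. Its brightest probe set had medians of 244, 285, 318 and 324 at days 0, 2, 4 and 6, and the day 6 arrays spread from 163 to 390.02, overlapping all earlier days. Its log2 changes from day 0 were 0.11, 0.29 and 0.09, and none passed (limma adjusted p = 0.848, 0.281 and 0.731). A second probe set changed by 0.15, 0.28 and 0.04 and did not pass either. The remaining 3 probe sets were above the array median on at most 1 array.

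Casp1, the gene of the IL-1β-converting protease, was high on all arrays, from 3038 to 3583 without DSS and from 2633 to 3475 at day 6. Its log2 change was 0.11 at day 2 (limma adjusted p = 0.544), -0.08 at day 4 (adjusted p = 0.481) and -0.19 ± 0.07 at day 6 (adjusted p = 0.0364), so the transcript of the protease was slightly lower at the day when that of its substrate Il1b was highest. Transcript levels do not measure cleavage. The day 6 call was lost with only days 0 and 6 in the fit (adjusted p = 0.0784). It was kept in 16 of 23 runs that left out 1 array (highest adjusted p = 0.103, without day 0 mouse 5).

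**Figure D2:**
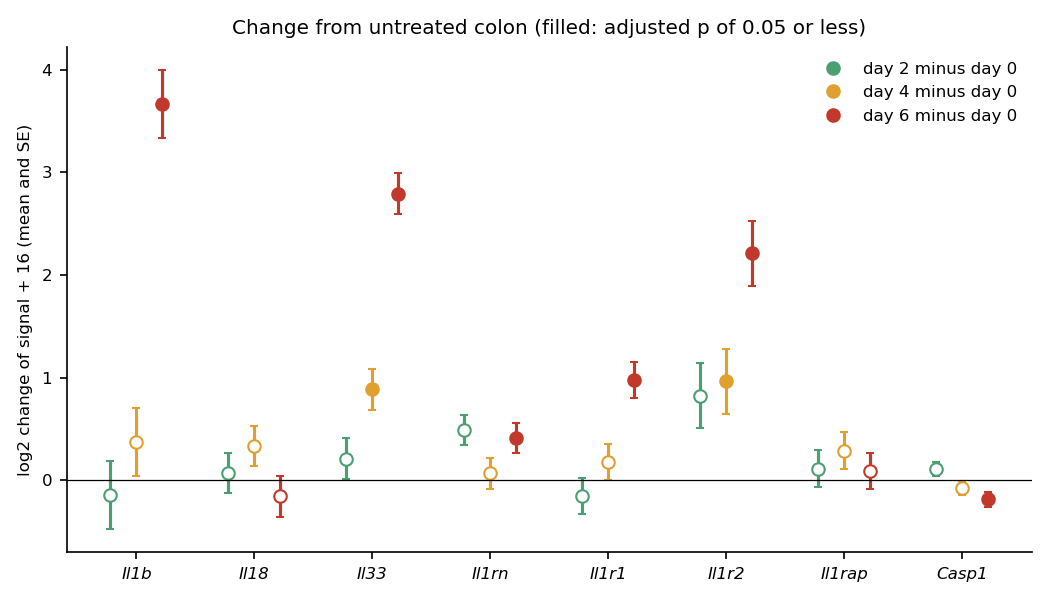
Log2 change of 8 IL-1 family genes from untreated colon at days 2, 4 and 6 (points with SE, limma; filled where the adjusted p was 0.05 or less). The changes of Il1b, Il33 and Il1r2 at day 6 were 3.67, 2.79 and 2.21, and those of Il18, Il1rap and Casp1 lay between -0.19 and 0.09.

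Against the background of all genes, the members' counts stood as follows. At day 6, 5 of the 8 tested members were higher and 1 was lower, where 18.1% of all 12463 genes were higher and 14.4% lower, and 4 of 8 did not overlap where 16.6% of all genes did not. The median log2 change was 0.70 over the members tested and 0.02 over all genes. At day 4, 2 of 8 were higher and 0 lower (12.1% and 4.34% of all genes), with medians of 0.31 and 0.06. At day 2, 0 of 8 passed in either direction, as did nearly all genes (0.016% higher, 0.0642% lower). From day 2 to day 4, 1 was higher and 1 lower (9.45% and 4.12%), and from day 4 to day 6, 4 were higher and 0 lower (9.07% and 13.7%). Centred on the array medians, all genes split into 12.5% higher and 19.1% lower at day 6, and into 6.13% and 17.9% from day 4 to day 6. The comparisons with day 0 share its 5 arrays.

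Agonist, antagonist, decoy and receptor were then compared within each array. The quantity is the log2 difference between 2 genes on 1 array, and its change from day 0 was tested with a two-sided exact permutation test of 462 splits, whose smallest p is 0.00216. The p-values were adjusted over 12 tests, 4 pairs at 3 days each. The difference itself depends on the probes, so only its change is read.

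Il1b changed unequally to its antagonist. Il1b minus Il1rn rose by 3.25 at day 6, from -3.10 ± 0.17 (SD, n = 5) to 0.15 ± 0.83 (SD, n = 6), without overlap (exact p = 0.00216, adjusted p = 0.0173). At day 2 it moved the other way, by -0.63 to -3.73 ± 0.47, with overlap (exact p = 0.026, adjusted p = 0.0445). The day 4 change of 0.31 did not pass (exact p = 0.331, adjusted p = 0.497). The day 2 call was kept in 1 of 11 runs that each left out 1 array. It was also lost with the mean of the Il1rn probe sets (-0.60, exact test, adjusted p = 0.0742) and without 4 arrays that stand apart in RNA of neighbouring tissue (-0.57, adjusted p = 0.109). Il1a minus Il1rn was higher at day 6 (exact p = 0.0152, adjusted p = 0.0303), with overlap through day 6 mouse 3. Because Il1a was dim at day 0, the size of that change follows the pseudocount, at 1.77 with 16, 2.96 with 1 and 0.81 with 64. It did not pass at days 2 and 4 (exact test, adjusted p = 0.903 and 0.751).

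The pair of caspase-1 substrates also separated. Il1b minus Il18 rose by 3.83 at day 6, from -4.93 ± 0.37 to -1.11 ± 1.20 (SD, n = 5 and 6), without overlap (exact p = 0.00433, adjusted p = 0.0173). At days 2 and 4 it changed by -0.22 and 0.04 (exact test, adjusted p = 0.505 and 0.903).

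The signalling receptor fell relative to the decoy at each day of DSS. Il1r1 minus Il1r2 was 3.32 ± 0.28 (SD, n = 5) without DSS and lower by 0.98 at day 2, when it stood at 2.34 ± 0.46 (SD, n = 6, exact p = 0.00649, adjusted p = 0.0195). It was 2.53 ± 0.37 on the day 4 arrays (exact p = 0.013, adjusted p = 0.0303). The day 6 arrays, at 2.08 ± 0.49, no longer overlapped with day 0 (exact p = 0.00433, adjusted p = 0.0173). These 3 calls were kept in all runs that left out 1 array. Because Il1r2 was dim at day 0, the size of the change follows the pseudocount. At day 2 it was -0.98 with 16, -1.13 with 1 and -0.71 with 64, and at day 6 -1.23, -1.47 and -0.76. Both genes were themselves higher at day 6 than at day 0. At day 2 neither gene passed on its own over all genes and the within-array difference did, but the difference was adjusted over far fewer tests. Before adjustment, p at day 2 was 0.0156 for Il1r2 and 0.379 for Il1r1 (limma), and 0.00649 for the difference (exact test). The pass of the difference therefore does not show a change that Il1r2 alone lacked.

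**Figure D3:**
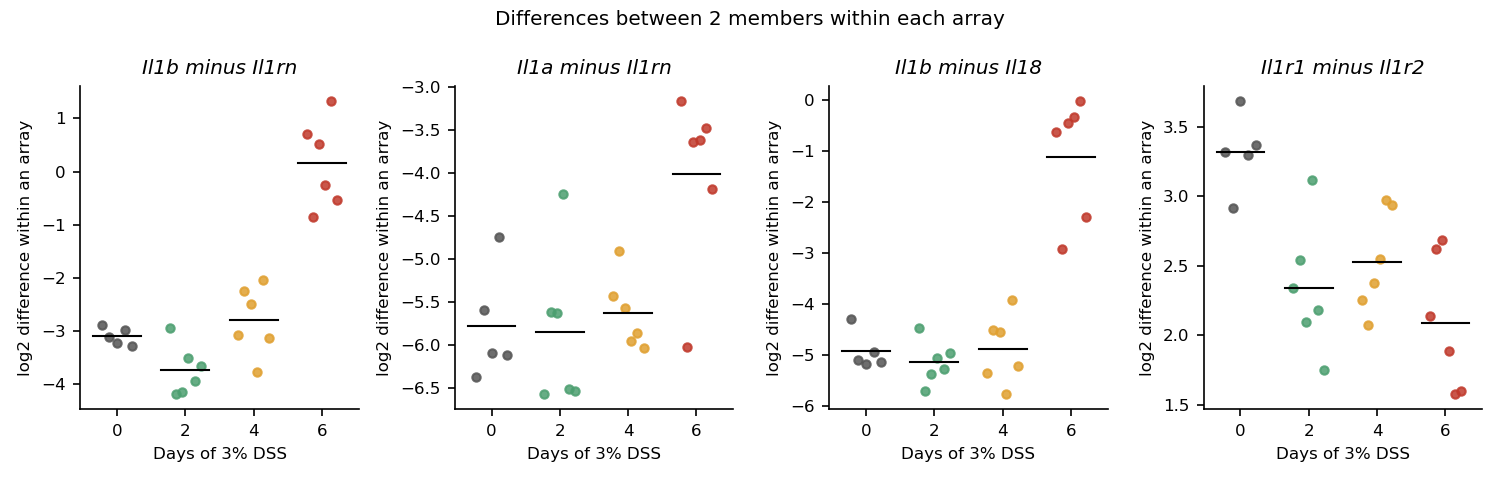
Log2 difference between 2 genes within each array (points) against days of DSS, with the mean of each day as a line. Il1b minus Il1rn and Il1b minus Il18 sit higher on all day 6 arrays than on any day 0 array, and Il1r1 minus Il1r2 lower.

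Of 12 further ligand and receptor genes of the family, 7 were tested, and at day 6, 5 of them rose and 0 fell, beside 18.1% and 14.4% of all genes (median log2 change 0.73). Il18rap and Il1f6 met the filter on dim probe sets only through the day 6 arrays, which favours a rise there. They are in the count and the median but lend them no support. Il1f10 (-0.28, limma adjusted p = 0.725) and Sigirr (-0.02, adjusted p = 0.922) did not pass. Il18bp, which encodes the secreted inhibitor of IL-18, read 108 ± 28.7 (SD, n = 5) without DSS and 438 ± 168 (SD, n = 6) at day 6, a 3.53-fold rise (log2 1.82, limma adjusted p = 7.25e-06). Il1f5, the older symbol of the IL-36 receptor antagonist gene, rose by 1.69 (adjusted p = 0.000379), and Il18rap, the accessory chain of the IL-18 receptor, by 1.21 (adjusted p = 0.00371). The IL-36 receptor gene Il1rl2 rose by 0.73 and Il1f6, the older symbol of its ligand IL-36α, by 0.67. At day 4, Il1f5 (1.26, adjusted p = 0.0112) and Il1rl2 (0.71, adjusted p = 0.0129) had passed. Il18 itself did not pass, so for IL-18 the gene of the inhibitor passed at day 6 and that of the ligand did not. The pass of the receptor chain gene Il18rap is left out of this reading because of the filter.

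Among genes of inflammasomes and ligand processing, 6 of 13 tested rose at day 6 and 2 fell, beside 18.1% and 14.4% of all genes (median 0.35). The share that fell was thus near that of all genes. Nlrp3, the sensor of the best-known inflammasome, rose by 1.59 from 81.2 ± 44.6 (SD, n = 5) to 264 ± 84.1 (SD, n = 6, limma adjusted p = 0.000804). Il16, another cytokine cut by a caspase, rose by 0.90 (adjusted p = 0.0246), Mefv, which encodes the sensor pyrin, by 0.89 (adjusted p = 0.00485) and the caspase gene Casp4 by 0.66 (adjusted p = 0.00215). Txnip, which binds thioredoxin, fell by 0.45 (adjusted p = 0.000144) and Naip2, a sensor of bacterial secretion systems, by 0.25 (adjusted p = 0.0169). The adaptor gene Pycard had a change of -0.06 (adjusted p = 0.573). At day 4 P2rx7, an ATP-gated channel, had risen (0.42, adjusted p = 0.0485) and Txnip had fallen (-0.36, adjusted p = 0.00424).

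Of 17 signalling genes downstream of the receptor, 7 rose at day 6 and 4 fell, beside 18.1% and 14.4% of all genes (median 0.19). Map3k8, which met the filter only through the day 6 arrays and is a kinase of the ERK branch, rose by 1.78 (limma adjusted p = 2.57e-06), the adaptor gene Myd88 by 0.75 (adjusted p = 5.89e-06) and the kinase gene Irak1 by 0.63 (adjusted p = 0.0079). Irak3, which encodes a negative regulator of the pathway, rose by 0.58 (adjusted p = 0.00694). Those that fell were Peli1 (-0.44), Peli2 (-0.38), Ikbkg (-0.27) and Map3k7 (-0.24). At day 4, 2 of the 17 rose, near the 12.1% of all genes, and 2 fell, above the 4.34% of all genes. Among them were Traf6, a ubiquitin ligase, at 0.45 (limma adjusted p = 0.0217) and Map3k7, the kinase TAK1, at -0.49 (adjusted p = 0.000563).

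Of 19 tested genes known to be induced by IL-1, 16 rose at day 6 and 0 fell, beside 18.1% and 14.4% of all genes (median 2.12). Il6, Cxcl2, Cxcl5, Csf3 and Il11 met the filter only through the day 6 arrays, as did 2.27% of all genes tested. Meeting it that way favours a rise without fixing it, and of the 283 such genes 127 were higher at day 6. These 5 are in the count and the median but lend them no support. Many genes of the list are also induced by other cytokines. The matrix protease gene Mmp3 rose by 5.07 (limma adjusted p = 1.39e-11), the neutrophil chemokine gene Cxcl2 by 4.93 (adjusted p = 4.99e-10) and the acute phase gene Saa3 by 4.92 (adjusted p = 3.23e-09). The genes that did not pass were Ccl20 (-0.53, adjusted p = 0.0776), Tnfaip3 (0.23, adjusted p = 0.195) and Zc3h12a (0.27, adjusted p = 0.282). At day 4, when Il1b itself did not pass, 6 of the 19 had risen and 1, Ccl20, had fallen (-0.68, limma adjusted p = 0.0452), beside 12.1% and 4.34% of all genes. Those with the largest changes were Mmp3 (2.39, adjusted p = 1.42e-05), Il6 (2.04, adjusted p = 0.000325) and Saa3 (1.83, adjusted p = 0.00243). Il6 was dim, at 9.67 ± 8.33 (SD, n = 5) without DSS and 91.8 ± 41.6 (SD, n = 6) at day 4. The size of its change therefore depends on the pseudocount, as does that of Cxcl2, at 30.1 ± 7.70 (SD, n = 5) without DSS. At day 2, 0 of 19 passed. Whether these genes changed earlier than Il1b was not tested.

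**Figure D4:**
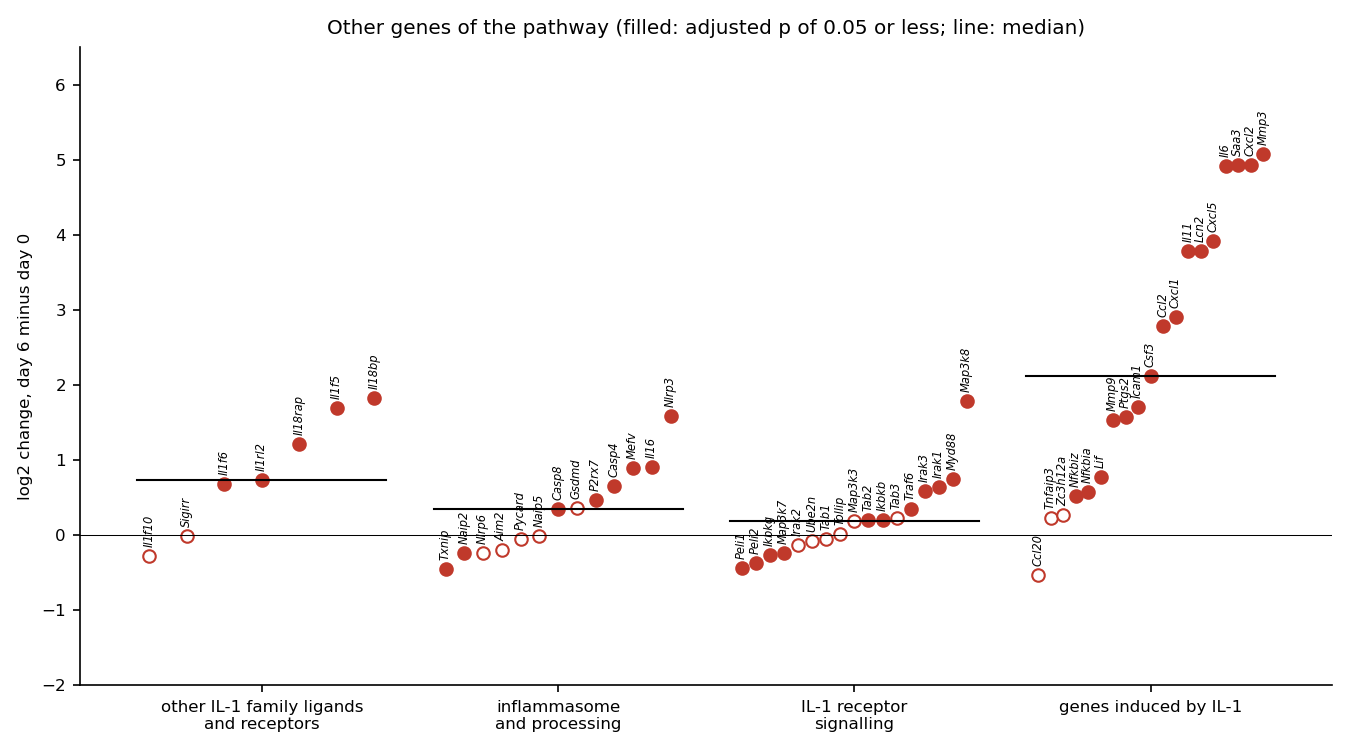
Log2 change from day 0 to day 6 of the tested genes of 4 lists, ordered within each list, with a line at the list's median (filled where the limma adjusted p was 0.05 or less). The medians are 0.73, 0.35, 0.19 and 2.12, against 0.02 over all genes, and they include 8 genes that met the filter only through the day 6 arrays.

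Marker genes of myeloid cells moved with the members at day 6, when 18.1% of all genes rose and 14.4% fell. Of 6 tested neutrophil markers 5 rose and 0 fell, and S100a9 and S100a8, calcium-binding proteins of neutrophils and monocytes, rose by 5.46 and 4.99 (limma adjusted p = 1.61e-07 and 1.38e-07). Their summed signal was 277 to 724 at day 0, 337 to 973 at day 2, 486 to 910.3 at day 4 and 2295 to 13423 at day 6. Csf3r, Trem1 and Clec4d, 3 of the 5, met the filter only through the day 6 arrays, which favours a rise there. They are in the count and the sum but lend them no support. Ltf was tested and did not pass at day 6. Defining neutrophil granule genes, Ngp, Camp, Mmp8, Mpo and Elane, and the receptor gene Cxcr2 were too dim to be tested. All 14 tested monocyte and macrophage markers rose, with a summed signal of 11847 to 16950.2 at day 0 and 25452 to 50417 at day 6. Among the 14, 2 met the filter only through day 6 and lend no support to the count or the sum. Within day 6, mouse 3 had the lowest neutrophil sum and the lowest Il1a, Il1b, Il33, Il1r1 and Il1r2, but the highest Il18. Mouse 21 had the highest sum and the highest Il1r1, Il1r2 and Il1rap, but the lowest Il1rn and Casp1. Il1a and Il1b were highest on mouse 1, with a sum of 8937, and Il33 on mouse 7, with 7264, the second lowest sum of the day. The part of these cells in the members' changes was not tested.

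Markers of other cells changed as well. Of all genes, 18.1% rose and 14.4% fell at day 6, and 12.1% rose and 4.34% fell at day 4. All 11 fibroblast and matrix markers rose at day 6 and 7 had risen at day 4, and of 10 endothelial markers 6 rose at day 6 and 9 at day 4. Among colon epithelial markers, which were present on all arrays, 0 of 15 rose and 5 fell at day 6. Of 4 tested mast cell markers, Hdc rose (2.74), having met the filter only through day 6, and Kit fell (-0.59), and 7 of 11 mast cell markers were too dim to be tested. Of T cell and innate lymphoid markers 2 could be tested, Thy1, which fibroblasts also express and which rose by 1.19, and Il7r, with a change of 0.68 (limma adjusted p = 0.0524).

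**Figure D5:**
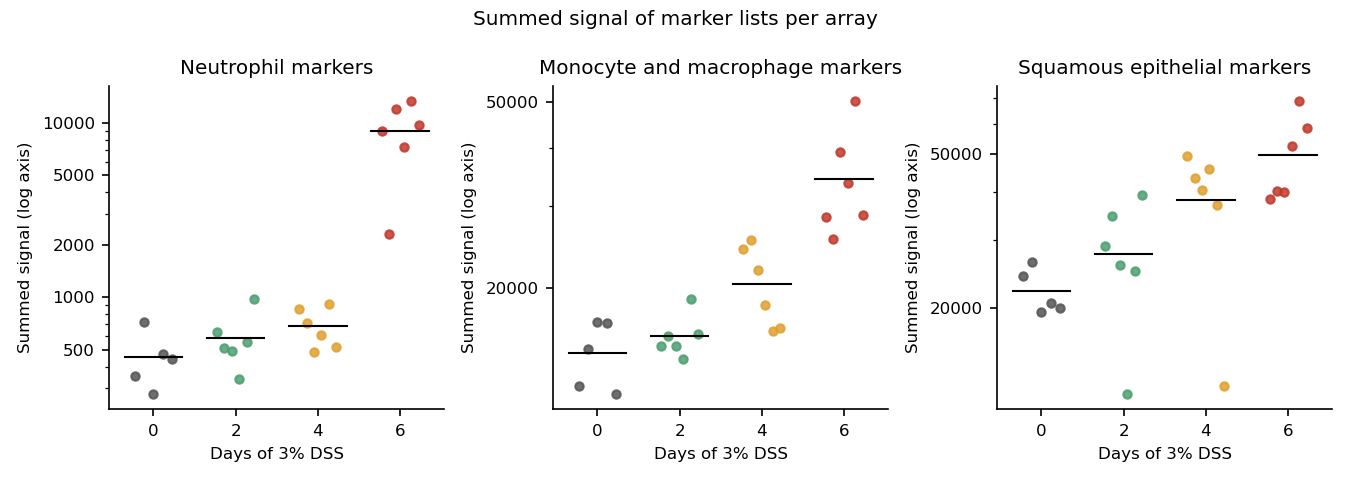
Summed signal of the tested genes of 3 marker lists on each array (log axis) against days of DSS, with the mean of each day as a line. Neutrophil sums lie between 2295 and 13423 at day 6 and at or under 973 before, and squamous sums are lowest on day 2 mouse 8 and day 4 mouse 8. The sums include 3 neutrophil and 2 monocyte and macrophage genes that met the filter only through the day 6 arrays.

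RNA of neighbouring tissue differed between arrays. The summed signal of 14 squamous epithelial markers was 19456 to 26233 at day 0 and 38185 to 68919 at day 6, with 4 of the 14 genes rising and 0 falling (18.1% and 14.4% of all genes), but 11892 on day 2 mouse 8 and 12535 on day 4 mouse 8. Those 2 arrays had the lowest Il1rn reading of day 2 and the second lowest of day 4, 1294 and 1303. Skeletal muscle markers varied more, with sums of 10269 to 22549 at day 0, 1581 on day 2 mouse 8, 1438 on day 4 mouse 8, 3845 on day 6 mouse 4 and 86909 on day 6 mouse 21, and 0 of 10 passed at day 6. Pancreatic markers summed to 58289 on day 2 mouse 6 and 14132 on day 6 mouse 1, and to at most 1198 on the others. The 4 arrays left out together were day 2 mice 6 and 8, day 4 mouse 8 and day 6 mouse 1. Day 6 mice 4 and 21 stayed in. Without those 4 arrays, Il1b, Il33, Il1r1, Il1r2, Il1rn and Casp1 kept their day 6 calls. With the squamous level as a covariate Il1rn (0.29, limma adjusted p = 0.177) and Casp1 (-0.12, adjusted p = 0.22) lost theirs.

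The hybridization controls, transcripts added to each sample before hybridization, also moved with day. Their mean log2 level was 11.35 to 11.51 at day 0, 10.83 to 11.15 at day 4 and 10.68 to 11.14 at day 6, so they cannot be told apart from day in those comparisons. With this level as a covariate the day 4 calls of Il33 (0.72, limma adjusted p = 0.227) and Il1r2 (0.81, adjusted p = 0.409) were lost, as were the day 6 calls of Il1rn, whose change stayed at 0.41 (adjusted p = 0.4), and Casp1 (-0.10, adjusted p = 0.712). The covariate left 136 higher and 32 lower among all genes at day 4, against 1504 and 541 without it. The day 6 calls of Il1b, Il33, Il1r1 and Il1r2 were kept.

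The genes whose course over the 23 arrays was most like that of each member were found by the root mean square (RMS) difference of log2 values, each gene centred on its own mean. For Il1b they were the chemokine gene Cxcl5 (0.48), Acod1, an enzyme of activated macrophages (0.50), and the chemokine gene Cxcl1 (0.55), where the RMS deviation of Il1b itself was 1.68. For Il33 they were Cpxm1 (0.31), Timp1, an inhibitor of matrix proteases (0.32), and Wfdc17 (0.37), against 1.15 for Il33. For Il1r2 they were the cytokine receptor gene Csf2rb2 (0.37), the complement gene Cfp (0.40) and the myeloid adaptor gene Tyrobp (0.40), against 0.93. For Il1r1 they were Pilrb1, Pde4b and Acsl4, at 0.20 to 0.22 against 0.52. For Il1rn they were the glucose transporter gene Slc2a1, the plakophilin gene Pkp3 and Anxa2, each at 0.20 against 0.32. These differences were large beside the variation of Il1rn itself. Il18 was closest to Pyy, Mgat4a and Mterf2 (0.23 to 0.25 against 0.37) and Il1rap to Ltv1, Pitrm1 and Marcks (0.19 to 0.20 against 0.29). Casp1 was closest to Pex2, Hint3 and Hadhb (0.07 to 0.08 against 0.15). All of these genes share the same arrays.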

How the data were processed

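Each of 23 animals gave colon RNA for 1 Affymetrix array (Mouse Genome 430 2.0). The deposited values are signal intensities per probe set on a linear scale, made by the authors with MAS5 per the submitters' processing notes. Their trimmed mean (2% at each end) was 500.003 on every array and medians lay between 97.3 and 121, so nothing was rescaled. Arrays scaled alike hide any change in the total RNA of a cell, and the number of arrays limits the precision. No pair of arrays shared over 0.00444% of values.

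Of 45101 probe sets, 64 were controls, and the annotation, which can be old, gave 1 symbol for 34945, several for 932 and none for 9160. Only those with 1 symbol were named. Probe sets above the array median on 5 or more arrays entered, and the brightest of these stood for a gene. The 12463 genes were tested as log2(signal + 16) with limma 3.58.1 in R 4.3.3 (lmFit, eBayes with trend, all 4 days in 1 fit, 19 residual degrees of freedom), two-sided and adjusted by the Benjamini-Hochberg method. The fit was tested on simulated data. A planned pair, Il33 minus Il1rl1, could not be run, so the pair tests were adjusted over 12 in place of the planned 15.

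Named genes were every member, for each list and comparison the 3 largest changes that passed (where none did, the 2 lowest p-values), and the 3 genes most like each member. Other list genes given with values were chosen after their values were seen. The members and lists were chosen with earlier results of these data known. Alternatives were the pseudocount, the filter, the normalization, the choice of probe sets, the arrays in the fit, covariates and a mouse number block.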

Additional observations from a re-analysis of the deposited data

Results flagged for a closer look

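In groups of 5 or 6 arrays, 36 were searched for an array far from the others and 3 were found, where chance gives about 1 in 20. Il1a on day 6 mouse 3 was at 7.42, far below the other 5 arrays of that day. Il1b on day 0 mouse 1 was at 199.5, above the other untreated arrays. Il18 on day 2 mouse 8 was at 3839, below the other day 2 arrays.

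Successive days differed for 6 results by limma's test of the difference. From day 2 to day 4, Il1rn fell by 0.42 (adjusted p = 0.0486) and Il33 rose by 0.68 (adjusted p = 0.0245). From day 4 to day 6, Il1b rose by 3.29 (adjusted p = 1.32e-06), Il33 by 1.91 (adjusted p = 1.33e-06), Il1r2 by 1.25 (adjusted p = 0.00416) and Il1r1 by 0.81 (adjusted p = 0.00118).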

How the results depend on the processing

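The day 6 calls of Il1b, Il33, Il1r1 and Il1r2 against day 0 were kept under each of the 12 alternatives and with each array left out. With arrays left out 1 at a time, the number of tested members that passed ranged from 0 to 0 at day 2, 1 to 2 at day 4 and 4 to 6 at day 6 against day 0, from 0 to 3 between days 2 and 4 and from 4 to 6 between days 4 and 6. The cause of the changes below was not tested. The 2 calls at day 4 became 1 with a pseudocount of 64, with no filter and with median centring, and 0 with the mouse number block and with the hybridization control covariate. The 2 calls between days 2 and 4 became 1 with no filter, quantile normalization, median centring or only those days in the fit, and 0 with the block and with the hybridization control covariate. Il1rn lost its call there in 17 of 23 runs without 1 array (adjusted p up to 0.14, limma), and Il33 in 4 (up to 0.0656, without day 4 mouse 1). Leaving out 1 array moved Il1b minus Il1rn at day 2 between -0.79 and -0.54 and Il1a minus Il1rn at day 6 between 1.59 and 2.17, the latter kept in 7 of 11 runs. Il1b minus Il1rn at day 2 was -0.60 with the mean of probe sets and -0.57 without the 4 arrays that stand apart. Il18 passed as lower between days 4 and 6 with median centring (-0.55), the hybridization control covariate (-0.61) and the squamous covariate (-0.55).

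Mouse numbers come from separate cohorts. The deviations of 17 same-number pairs correlated from -0.16 to 0.70 (median 0.05) and those of 181 other pairs from -0.50 to 0.38 (median 0.003). The highest was day 2 mouse 8 with day 4 mouse 8, both low in squamous and muscle RNA, 3 of the 17 pairs exceeded 0.1, and 3 of 17 arrays correlated best with their own number, so the numbers were not taken to pair the animals. With the mouse number as a replicate block, 0 members passed at day 4, although the changes were as large (0.89 for Il33, 1.14 for Il1r2, limma adjusted p = 0.0579 and 0.0523). Casp1 lost its day 6 call (-0.18, adjusted p = 0.153), Il1r2 lost its call between days 4 and 6 (0.76, adjusted p = 0.125) and Il1rn gained one there (adjusted p = 0.0139). No Il33 minus Il1rl1 alternative was run.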
